A study of Rattus norvegicus with 9 samples.

Results

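Immediate early genes are transcribed within minutes of a stimulus from factors that the cell already holds. In brain they are read as a record of recent neuronal firing, growth factor signalling or stress, and focal ischaemia, seizures and spreading depolarization are classical inducers. Their products are mostly transcription factors that set off later waves of transcription, together with a few effectors at the synapse and phosphatases that switch the inducing kinases off. The set described here has 9 genes of the 32883 in the deposited table, each picked by its Ensembl ID: the AP-1 genes Fos (ENSRNOG00000008015), Jun (ENSRNOG00000026293) and Junb (ENSRNOG00000042838), their partner Atf3 (ENSRNOG00000003745), the zinc finger factors Egr1 (ENSRNOG00000019422) and Egr2 (ENSRNOG00000000640), the orphan nuclear receptor Nr4a1 (ENSRNOG00000007607), the synaptic gene Arc (ENSRNOG00000043465) and the phosphatase Dusp1 (ENSRNOG00000003977). The rule is a list of IDs with no threshold on a value, and the list was drawn up with earlier results of these data known.

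The 9 genes were followed in 9 RNA-seq libraries of rat brain tissue, 3 from each of 3 groups. Sham rats had a sham operation. MCAO rats had the middle cerebral artery occluded, a model of ischaemic stroke, and in the series title the injury is ischaemia followed by reperfusion. PN rats had the same occlusion and were given Panax notoginseng, a medicinal plant. The strain, age, brain region, hemisphere, dose, route and the time from surgery to sampling are not given in these sources, which matters for genes whose transcripts last for minutes to hours. Whether each sample is a different animal is not stated, so p-values reflect the spread of these samples alone, part of which may be technical. Libraries are named by group and the code that ends their title, such as MCAO 6B.

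Values are FPKM, fragment numbers divided by transcript length and library size, so levels can be set side by side between genes. Sums of FPKM per library ran from 387893 to 445693, and relative sequencing depth, read from the steps between low values, ran from 1 in MCAO 3B to 1.33 in PN 7A. The number of reads behind a value is not known, and no counting interval is given. In tissue RNA, fewer cells of a type and less RNA per cell cannot be told apart. Cell type markers were not analysed here, because the files give IDs only, so the labelled tissue was not checked against them.

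Of the 9 genes, 8 reached at least 1 FPKM in at least 3 libraries and were tested among the 15051 genes that did. Atf3 reached 1 FPKM in only 1 library and was left out of the tests. By the median over the 9 libraries Egr1 was the most abundant member, at 70.6 FPKM. Junb followed at 59.0 FPKM, Arc at 51.1, Dusp1 at 49.3, Jun at 42.2, Nr4a1 at 36.8 and Fos at 19.6 FPKM. Egr2, at 2.21 FPKM, and Atf3, at 0.468 FPKM, came last. Neighbours in this order had overlapping ranges over the libraries.

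Promoter sequences are shown for 4 of the members whose levels moved together over the libraries. Junb moved with them too, and its sequence was searched but is not shown. Whether promoter sequence bears on that pattern was not tested. The RefSeq promoter table (build GRCr8, rat) was matched by symbol and holds 5 of the 9 members, Junb, Egr1, Egr2, Nr4a1 and Dusp1. Each sequence is the 250 bases before the gene's start, 5′ to 3′ on the gene's strand, and capitals mark every match to a searched motif on either strand. The motifs were the cyclic AMP response element CRE (TGACGTCA), bound by CREB, its half-site (TGACG), which also lies inside the full CRE, the AP-1 site (TGANTCA), the Egr site (GCGNGGGCG), the TATA box (TATAAA) and the CArG box, the core of the serum response element bound by SRF.
Egr1, chr18:26736828-26737077, plus strand: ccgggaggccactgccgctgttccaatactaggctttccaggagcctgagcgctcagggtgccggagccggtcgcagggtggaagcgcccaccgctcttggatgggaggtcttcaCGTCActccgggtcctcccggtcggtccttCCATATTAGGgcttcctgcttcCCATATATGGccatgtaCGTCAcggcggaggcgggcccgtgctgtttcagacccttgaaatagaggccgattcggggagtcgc
Egr2, chr20:21054442-21054691, minus strand: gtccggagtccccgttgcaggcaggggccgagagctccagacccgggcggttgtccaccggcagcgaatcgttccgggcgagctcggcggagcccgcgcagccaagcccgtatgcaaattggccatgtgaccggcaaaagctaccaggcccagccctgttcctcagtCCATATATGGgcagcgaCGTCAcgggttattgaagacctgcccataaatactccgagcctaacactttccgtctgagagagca
Nr4a1, chr7:134259888-134260137, plus strand: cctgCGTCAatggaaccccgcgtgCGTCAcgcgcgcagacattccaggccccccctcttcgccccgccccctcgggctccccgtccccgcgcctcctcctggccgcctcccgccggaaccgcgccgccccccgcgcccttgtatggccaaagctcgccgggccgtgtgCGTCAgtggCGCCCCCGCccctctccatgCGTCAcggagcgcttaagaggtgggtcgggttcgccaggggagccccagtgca
Dusp1, chr10:17184603-17184852, plus strand: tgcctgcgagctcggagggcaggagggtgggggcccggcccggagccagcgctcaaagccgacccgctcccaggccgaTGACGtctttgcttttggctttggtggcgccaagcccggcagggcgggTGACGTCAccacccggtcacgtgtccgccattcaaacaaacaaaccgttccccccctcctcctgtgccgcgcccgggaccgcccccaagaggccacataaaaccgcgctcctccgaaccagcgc

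All 5 promoters held the CRE half-site, which 18.2% of the 33469 rat promoter windows of the same length hold. The CArG box was in 2 of the 5, Egr1 and Egr2, against 1.5% of all windows. Egr1 had CArG boxes from 105 to 96 and from 83 to 74 bases before the start, and Egr2 had one from 83 to 74. In both genes a CRE half-site followed from 66 to 62 bases before the start, so the same pair of motifs stood at the same distances. The full CRE was in Dusp1 alone, from 124 to 117 bases before the start (1.59% of all windows). The Egr site was in Nr4a1 alone (4.29%), beside 4 CRE half-sites, and the TATA box in Junb alone (12.9%). The AP-1 site was in none of the 5, against 6.34% of all windows. These matches are letters in a window and were not tested as binding sites.

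The AP-1 factor is a dimer of a Fos protein with a Jun protein. Fos was at 49.9 FPKM in sham 4B, 9.63 in sham 5B and 40.2 in sham 9A, at 14.5 FPKM in MCAO 3B, 39.7 in MCAO 6B and 5.58 in MCAO 7A, and at 19.6 FPKM in PN 3A, 7.14 in PN 6A and 30.3 in PN 7A. Each group held both a high and a low library, and the 3 groups overlapped. The highest library, sham 4B, had 8.95 times the Fos of the lowest, MCAO 7A. The group means were 33.3 ± 21.0 FPKM in sham, 19.9 ± 17.7 in MCAO and 19.0 ± 11.6 in PN (SD, n = 3 each).

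Junb, which competes with Jun for Fos and is a weaker activator, was at 135 FPKM in sham 4B, 45.4 in sham 5B and 66.6 in sham 9A. It was at 41.0 FPKM in MCAO 3B, 61.5 in MCAO 6B and 21.2 in MCAO 7A, and at 59.0 FPKM in PN 3A, 27.2 in PN 6A and 75.2 in PN 7A. Its highest and lowest libraries were those of Fos, sham 4B and MCAO 7A. Within each library Junb exceeded Fos, by 1.55 times in MCAO 6B to 4.71 times in sham 5B. Its means were 82.5 ± 47.0, 41.2 ± 20.2 and 53.8 ± 24.4 FPKM in sham, MCAO and PN (SD, n = 3 each).

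Jun, the main partner of Fos and a target of the JNK kinases, did not follow them. It was at 43.0 FPKM in sham 4B, 19.4 in sham 5B and 41.2 in sham 9A, at 43.0 FPKM in MCAO 3B, 29.3 in MCAO 6B and 42.2 in MCAO 7A, and at 44.5 FPKM in PN 3A, 57.6 in PN 6A and 39.1 in PN 7A. Apart from sham 5B, MCAO 6B and PN 6A the libraries lay between 39.1 and 44.5 FPKM. PN 6A, among the lowest libraries for Fos and Junb, was the highest for Jun. The ratio of Fos to Jun therefore ran from 0.124 in PN 6A to 1.35 in MCAO 6B. Group means of Jun were 34.5 ± 13.1, 38.2 ± 7.67 and 47.1 ± 9.51 FPKM in sham, MCAO and PN (SD, n = 3 each).

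Atf3 dimerizes with Jun proteins and is induced by many kinds of stress, nerve injury among them. It was at 0.284 FPKM in sham 4B, 0.0817 in sham 5B and 0.840 in sham 9A, at 0.835 FPKM in MCAO 3B, 0.215 in MCAO 6B and 0.468 in MCAO 7A, and at 1.37 FPKM in PN 3A, 0.895 in PN 6A and 0.15 in PN 7A. The groups overlapped at these levels, which are near the floor of the table. With no filter on low values its log2 differences were 0.12 for MCAO against sham, 0.22 for PN against MCAO and 0.34 for PN against sham (standard error 0.30 each, limma adjusted p = 0.927, 0.826 and 0.932).

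Egr1 is a zinc finger factor that SRF and its partners switch on within minutes. It was at 148 FPKM in sham 4B, 70.6 in sham 5B and 104 in sham 9A, at 27.3 FPKM in MCAO 3B, 153 in MCAO 6B and 30.4 in MCAO 7A, and at 68.8 FPKM in PN 3A, 18.1 in PN 6A and 87.9 in PN 7A. MCAO 6B was the highest of all libraries, whereas the other two MCAO libraries lay below every sham library. The means were 107 ± 38.6, 70.2 ± 71.7 and 58.3 ± 36.1 FPKM in sham, MCAO and PN (SD, n = 3 each).

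Egr2, a relative of Egr1 that also drives myelination in Schwann cells, stood far lower. It was at 8.52 FPKM in sham 4B, 2.21 in sham 5B and 5.06 in sham 9A, at 1.84 FPKM in MCAO 3B, 8.73 in MCAO 6B and 1.39 in MCAO 7A, and at 1.68 FPKM in PN 3A, 0.778 in PN 6A and 6.84 in PN 7A. Its highest library was again MCAO 6B and its lowest PN 6A. Egr1 exceeded Egr2 in every library, by 12.9 times in PN 7A to 40.9 times in PN 3A. Group means of Egr2 were 5.26 ± 3.16, 3.98 ± 4.11 and 3.10 ± 3.27 FPKM in sham, MCAO and PN (SD, n = 3 each).

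Nr4a1, an orphan nuclear receptor also called Nur77, was at 96.1 FPKM in sham 4B, 31.4 in sham 5B and 44.8 in sham 9A. It was at 16.5 FPKM in MCAO 3B, 67.0 in MCAO 6B and 11.5 in MCAO 7A, and at 36.8 FPKM in PN 3A, 7.70 in PN 6A and 40.8 in PN 7A. PN 6A was lowest, as for Egr1, and MCAO 6B came second to sham 4B. Its means were 57.4 ± 34.1, 31.7 ± 30.7 and 28.4 ± 18.1 FPKM in sham, MCAO and PN (SD, n = 3 each).

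Arc mRNA travels to active synapses, where its protein promotes the removal of AMPA receptors. Its spread was the widest of the 8 tested members. It was at 177 FPKM in sham 4B, 51.1 in sham 5B and 58.6 in sham 9A, at 27.2 FPKM in MCAO 3B, 194 in MCAO 6B and 9.20 in MCAO 7A, and at 45.5 FPKM in PN 3A, 17.5 in PN 6A and 69.7 in PN 7A. Both its highest and its lowest library were MCAO libraries, 21.1 times apart. The means were 95.7 ± 70.8, 76.8 ± 102 and 44.2 ± 26.1 FPKM in sham, MCAO and PN (SD, n = 3 each).

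Dusp1, a phosphatase that switches off MAP kinases, was at 110 FPKM in sham 4B, 44.0 in sham 5B and 55.5 in sham 9A. It was at 26.1 FPKM in MCAO 3B, 75.3 in MCAO 6B and 33.0 in MCAO 7A, and at 57.8 FPKM in PN 3A, 11.0 in PN 6A and 49.3 in PN 7A. Sham 4B was highest and PN 6A lowest, 9.99 times apart. Its means were 69.8 ± 35.3, 44.8 ± 26.6 and 39.4 ± 24.9 FPKM in sham, MCAO and PN (SD, n = 3 each).

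**Figure D1:**
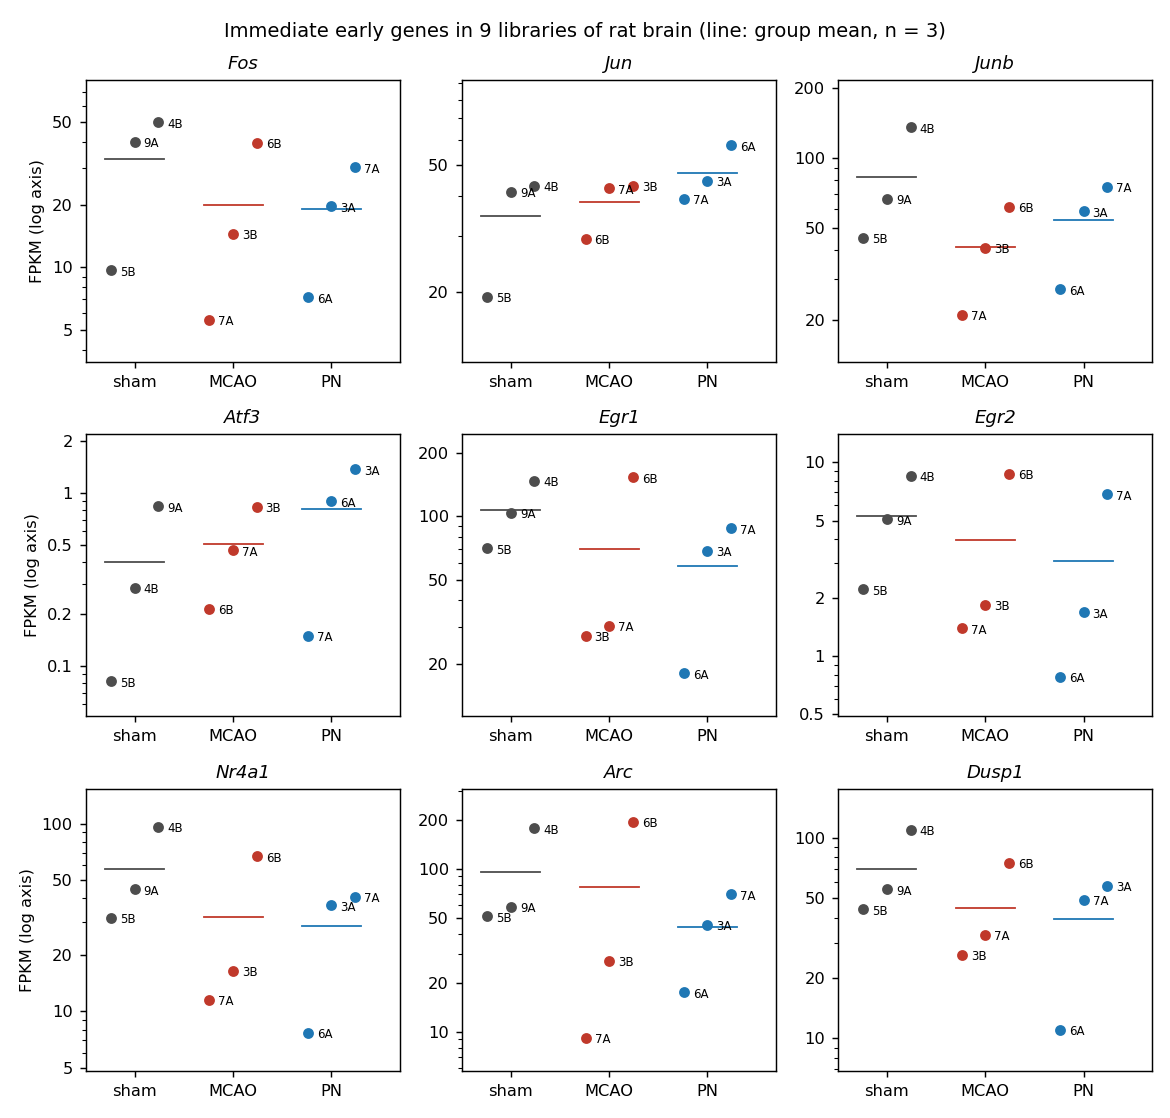
FPKM of each gene on a log axis (vertical) by group (horizontal), 1 point per library labelled with its code, lines at the group mean (n = 3). In all 9 panels the points of the 3 groups overlap, with MCAO 6B far above MCAO 3B and 7A for Egr1, Egr2, Nr4a1 and Arc.

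The comparison of MCAO with sham asked what the occlusion changed. Fos, Junb, Egr1, Egr2, Nr4a1, Arc and Dusp1 had lower group means in MCAO and Jun a higher one, but none of the 8 differences passed the test. On the log2(FPKM + 1) scale, which understates the change of low genes, Arc differed by -1.10 (standard error 0.98, limma adjusted p = 0.686). Nr4a1 differed by -1.09 with a standard error of 0.76 (adjusted p = 0.606) and Egr1 by -1.01 with 0.72 (adjusted p = 0.617, both limma). The others differed by -0.96 (Junb), -0.81 (Fos), -0.67 (Dusp1), -0.50 (Egr2) and 0.20 (Jun), with adjusted p from 0.510 to 0.814 (limma).

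By limma with Benjamini-Hochberg adjustment 0 of the 8 members were called in MCAO against sham, where 0.00664% of all genes tested were. At an unadjusted p below 0.05 there were also 0 of 8 members, against 11.1% of all genes, and in 0 of 8 did the groups not overlap, against 19.6%. By direction alone 7 of 8 were lower in MCAO, against 51.7% of all genes. In 3 of 8 (Egr1, Nr4a1 and Arc) the difference on the log2(FPKM + 1) scale was 2-fold or more, against 3.95% of all genes. These 3 spread more widely within groups than most genes, so that share is not a like background for them. Their FPKM means lay less than 2-fold apart. In sham and MCAO these means were 107 and 70.2 for Egr1, 57.4 and 31.7 for Nr4a1, and 95.7 and 76.8 for Arc. The median difference was -0.88 over the members and -0.01 over all genes tested. The 7 members lower in MCAO move together from library to library, so their shared direction is not 7 separate observations.

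The 95% intervals show how little 3 libraries a group fix for genes of this spread. The interval for Arc ran from -3.29 to 1.09. As a ratio of MCAO to sham taken from means of log2(FPKM + 1), not from FPKM means, that is 0.102 to 2.13. For Fos it ran from -2.57 to 0.95 and for Jun, the narrowest, from -0.49 to 0.89. The values depended on single libraries, in both directions. Without MCAO 7A, the lowest library for Fos, Junb and Arc, Arc differed by -0.147, Fos by -0.165 and Egr2 by -0.117, and the members' median was -0.35. Without sham 4B the median was -0.46, and without sham 5B it was -1.29. Without MCAO 6B it was -1.39: Arc differed by -2.28, Egr1 by -1.80, Nr4a1 by -1.82 and Junb by -1.30. These 4 members reached an unadjusted p below 0.05, against 8.97% of all genes, while none passed the adjustment (limma, adjusted p from 0.489 to 0.547). MCAO 6B was the highest MCAO library for each of these 4, and they move together. The share over all genes is thus not a like background for them. Without sham 5B, Junb alone reached an unadjusted p below 0.05 (limma, difference -1.31, adjusted p = 0.687), against 7.12% of all genes, and Jun turned to -0.16. Without any of the other 7 libraries no member did.

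The comparison of PN with MCAO asked what the treatment changed after occlusion. The members showed no common direction: 4 of 8 were lower in PN (Egr1, Egr2, Nr4a1 and Dusp1), against 42.9% of all genes. By limma 0 of 8 were called (0.00664% of all genes), 0 of 8 had an unadjusted p below 0.05 (13.2%), and in 0 of 8 did the groups not overlap (20.3%). On the log2(FPKM + 1) scale 0 of 8 differed 2-fold or more (3.82%). Junb had the largest difference, 0.38 (standard error 0.51, limma adjusted p = 0.770), followed by Dusp1 at -0.33 and Jun at 0.30. Fos differed by 0.11 and Arc by 0.04, although the FPKM means of both were lower in PN, so for these genes the raw means and the log-scale difference differ in sign.

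The median over the members was -0.000364 in PN against MCAO, beside 0.07 over all genes tested. For Arc the 95% interval ran from -2.15 to 2.23 and for Fos from -1.65 to 1.87, so differences of 2-fold or more in either direction lie inside them. All 8 members were higher in PN when MCAO 6B or PN 6A was left out, with medians of 0.71 and 0.60, and 7 of 8 were lower when MCAO 7A was left out, with a median of -0.50. None passed under any of these (limma). The direction for these genes thus turned with single libraries.

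The comparison of PN with sham asked what differed after both occlusion and treatment. It used the same sham libraries as MCAO against sham. Fos, Junb, Egr1, Egr2, Nr4a1, Arc and Dusp1 were lower in PN, 7 of 8 against 44.5% of all genes, and Jun was higher by 0.50 (standard error 0.31, limma adjusted p = 0.974). Nr4a1 differed by -1.13, Egr1 by -1.08, Arc by -1.06, Dusp1 by -0.996, Egr2 by -0.77, Fos by -0.70 and Junb by -0.58. Their adjusted p lay between 0.974 and 0.981 (limma).

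In PN against sham limma called 0 of 8 members, where 0.0199% of all genes were called. There were 0 of 8 at an unadjusted p below 0.05 (4.25%) and 0 of 8 whose groups did not overlap (8.71%). On the log2(FPKM + 1) scale 3 of 8 (Egr1, Nr4a1 and Arc) differed 2-fold or more (2.59%). These 3 spread more widely within groups than most genes, so the share over all genes is not a like background for them. The members lower in PN move together, so their shared direction is not a set of separate observations. The median was -0.88 over the members and 0.04 over all genes. Without PN 6A, the library lowest for Egr1, Egr2, Nr4a1 and Dusp1, the members' median was -0.29. Without sham 4B, the highest for Fos, Junb, Nr4a1 and Dusp1, it was -0.45. It moved the other way without PN 7A, to -1.34, and without sham 5B, to -1.31.

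**Figure D2:**
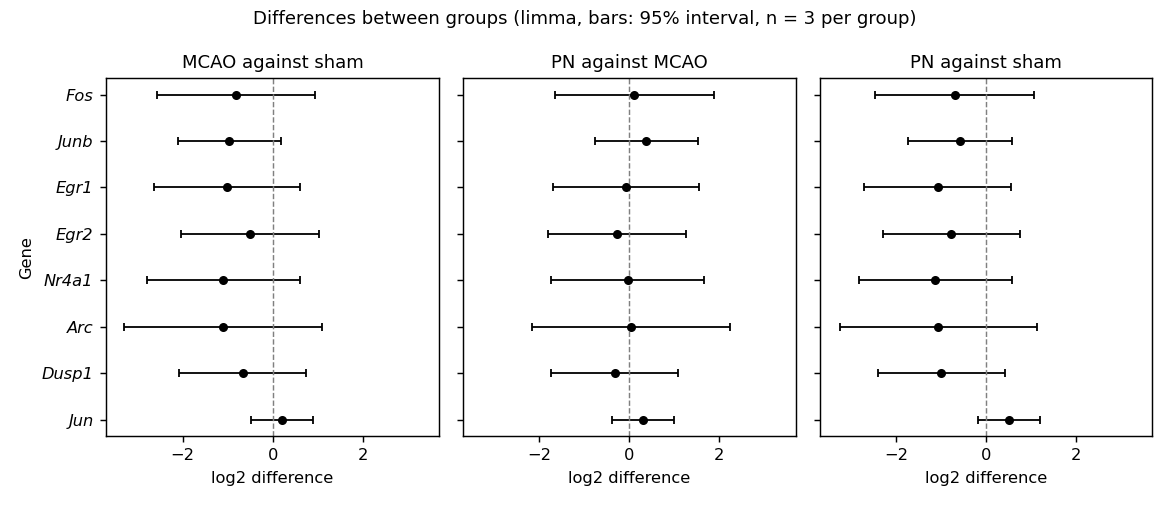
Differences between group means on the log2(FPKM + 1) scale (horizontal) for the 8 tested members (vertical) in the 3 comparisons, with 95% intervals from limma (n = 3 libraries per group). Every interval spans 0, and the interval of Jun is the narrowest in each panel.

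The spread between libraries of one group was large for these genes. Within-group standard deviations on the log2(FPKM + 1) scale were 1.48 for Arc, 1.19 for Fos, 1.14 for Nr4a1, 1.09 for Egr1, 1.01 for Egr2, 0.94 for Dusp1 and 0.76 for Junb, against a median of 0.32 over all genes tested. Of the 15051 genes tested 87, Arc included, spread as widely as Arc, and 99.4% had a lower standard deviation. The share with a lower one was 98.6% for Fos, 98.4% for Nr4a1, 98.1% for Egr1, 97.5% for Egr2, 96.7% for Dusp1 and 93.4% for Junb. Jun, at 0.43, was nearer the bulk of genes, with 70.5% below it. Among the 1000 genes nearest in mean level the share below each member was 95.2% (Egr2) to 99.8% (Arc), and 81.9% for Jun. The 3 groups accounted for 12.02% (Fos) to 28.5% (Junb) of the variation of the 8 members, beside a median of 29.0% over all genes tested. With 3 means fitted to 9 libraries some share arises without any group effect, and it was not subtracted. These shares are therefore not variation that the groups explain.

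**Figure D3:**
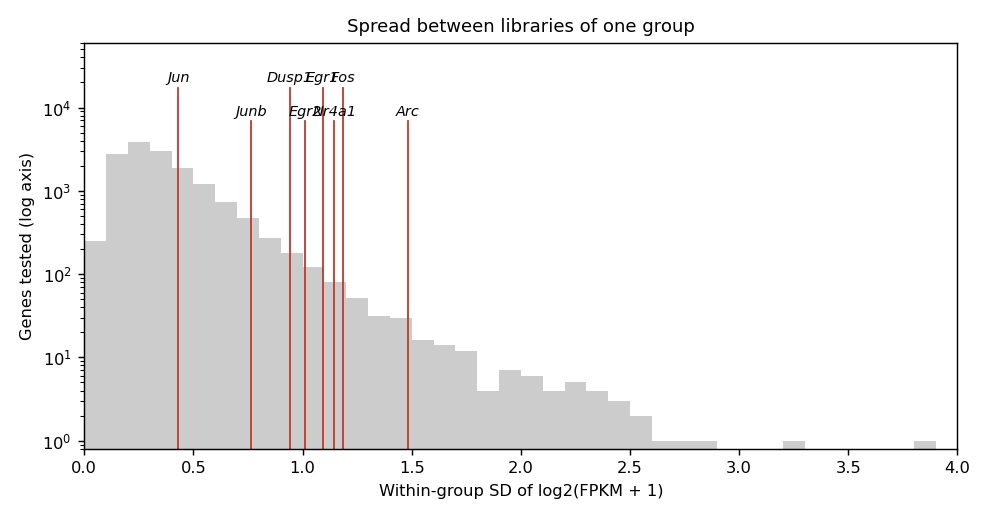
Number of tested genes (vertical, log axis) by within-group standard deviation of log2(FPKM + 1) (horizontal), with a red line at each of the 8 tested members. From Junb at 0.76 to Arc at 1.48, 7 members lie in the right tail, and Jun lies at 0.43.

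What the 7 widely spread members shared was the order of the libraries. Sham 4B was first or second of the 9 libraries for each of them. MCAO 6B and sham 9A were among the first 4 for all 7, and PN 7A for 6 of 7. At the other end MCAO 7A and PN 6A were among the last 3 for all 7, and MCAO 3B for 5 of 7. The high libraries came from all 3 groups, 2 of them from sham, and the low ones from MCAO and PN alone. Sham 5B, the lowest of the sham libraries by the mean of these genes, was among the last 3 for 1 of 7. For Jun the order was different, with PN 6A 1.32 standard deviations above its mean and sham 5B 2.21 below it.

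Relative depth overlapped between these ends: it was 1.15 to 1.33 in sham 4B, sham 9A, MCAO 6B and PN 7A, and 1 to 1.20 in MCAO 3B, MCAO 7A and PN 6A. The letter in the sample code, which the labels do not explain, was B in sham 4B, MCAO 6B and MCAO 3B and A in the other 4 of these libraries. All 3 PN libraries carry A, while sham and MCAO each have 2 libraries with B and 1 with A, so the letter is partly confounded with PN. With the letter as a covariate Arc in PN against MCAO moved from 0.04 to 1.22 and Junb from 0.38 to 0.86, and no member was called (limma). Beyond that fit its part in the levels was not tested.

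**Figure D4:**
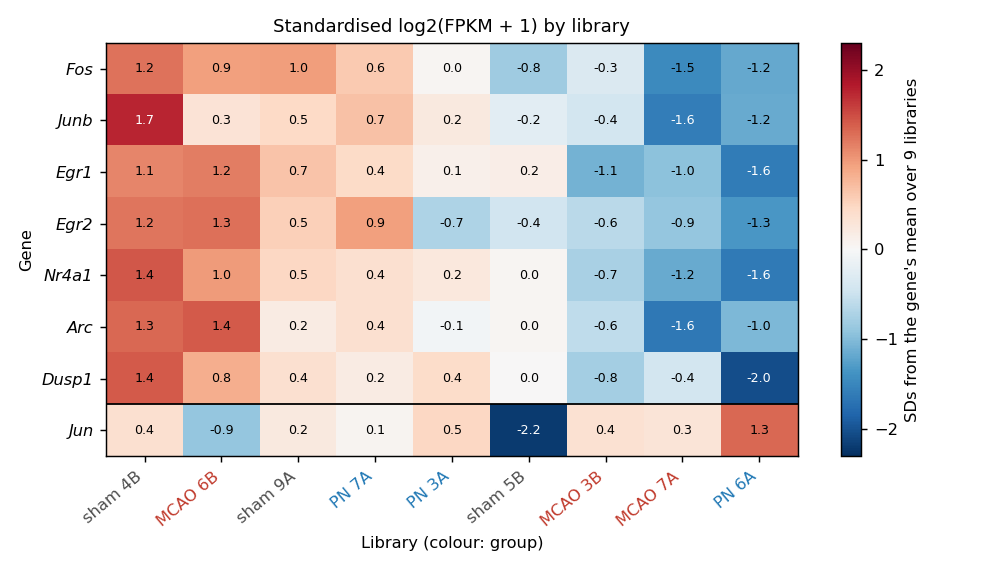
Standardised log2(FPKM + 1) of the 8 tested members (vertical) in each library (horizontal, coloured by group), in standard deviations from the gene's mean and with libraries ordered by the mean of the 7 genes above the line. Sham 4B is high and PN 6A low in those 7, while Jun is 1.3 above its mean in PN 6A and 2.2 below it in sham 5B.

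The co-variation was measured over the 9 libraries for the 28 pairs of the 8 members. All 21 pairs without Jun were correlated, with Pearson's r from 0.79 (Fos and Dusp1) to 0.98 (Egr1 and Nr4a1) and Spearman's rho from 0.77 to 0.97. Each of the 21 passed in an exact two-sided permutation test with Benjamini-Hochberg adjustment over the 28 pairs (adjusted p from 0.000797 to 0.0125 for r). The share of pairs among all genes tested that would pass the same test was not computed. The count of 21 therefore has no background at this level. The closest pair, Egr1 and Nr4a1, had r = 0.977 (exact permutation p = 4.68e-05, adjusted p = 0.000797) and rho = 0.95 (exact permutation p = 0.000353, adjusted p = 0.00262). Next came Nr4a1 and Dusp1 with r = 0.95, and Nr4a1 and Arc and Egr1 and Dusp1 with r = 0.94 each. Fos and Junb, whose products can pair with each other, had r = 0.92 and rho = 0.93 (exact permutation p = 0.000127 and 0.00075, adjusted p = 0.000887 and 0.00262).

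Without the 2 libraries farthest from the median of the first gene of each pair, r ran from 0.67 (Egr2 and Dusp1) to 0.98 over the 21 pairs, and Egr1 and Nr4a1 stayed at r = 0.98. With each group's mean subtracted, r ran from 0.77 to 0.97 (median 0.89, against 0.89 without subtraction), so the members also moved together within groups. Groups of 3 libraries are too small for a correlation of their own.

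None of the 7 pairs with Jun passed over the 9 libraries. Their r ran from -0.44 (Egr1 and Jun) to -0.05 (Fos and Jun), with exact permutation adjusted p from 0.297 to 0.907. When sham 5B, the lowest library for Jun, was left out, some pairs with Jun passed. Without the 2 libraries farthest from the median of Fos, MCAO 7A and PN 6A, Fos and Jun turned to 0.49. For the 6 other pairs the median was that of Jun, and sham 5B and MCAO 6B were left out. Those pairs stayed negative, from -0.71 (Jun and Dusp1) to -0.38 (Jun and Arc), each more negative than over 9 libraries. As the libraries left out differ, Fos and Jun cannot be set against the 6 other pairs here.

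**Figure D5:**
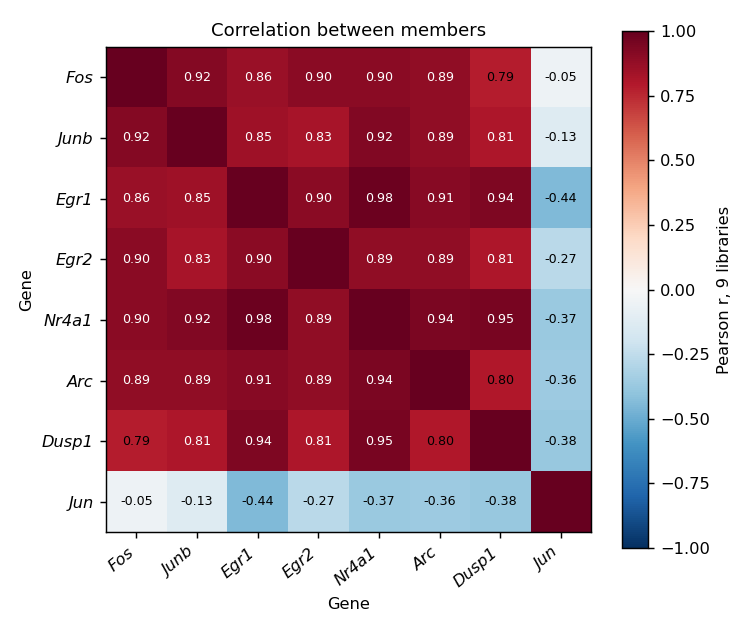
Pearson's r over the 9 libraries for each pair of the 8 tested members (both axes), on log2(FPKM + 1). The block of 7 genes holds values from 0.79 to 0.98, and the row and column of Jun hold values from -0.44 to -0.05.

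The same 7 genes were also close to one another when all genes tested were ranked by r. Among the 15050 other genes, Nr4a1 was the gene closest to Egr1 and Egr1 the gene closest to Nr4a1. For Nr4a1, Dusp1 came 7th and Arc 13th. For Dusp1, Nr4a1 came 2nd and Egr1 6th, and for Fos, Junb came 5th and Egr2 10th. The first 100 genes by r held 6 other members for Egr1, Egr2 and Nr4a1, 5 for Fos and Arc, 3 for Junb and 2 for Dusp1, and none for Jun. An r of 0.9 or more with Nr4a1 was found for 38 of the 15050 genes (0.252%), 5 of them members, the highest number for any member. For the others it was 3 of 12 such genes for Fos, 3 of 29 for Egr1, 2 of 25 for Junb, 2 of 21 for Arc, 2 of 22 for Dusp1, 1 of 10 for Egr2 and 0 of 40 for Jun. These ranks describe 9 libraries that all genes share.

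Levels of one member relative to another varied less than the levels themselves for close pairs. Arc over Egr1 lay between 0.303 (MCAO 7A) and 1.27 (MCAO 6B), a span well under the 21.1-fold range of Arc. Junb over Jun ran from 0.472 in PN 6A to 3.15 in sham 4B, so Jun was the more abundant of the 2 in PN 6A, MCAO 7A and MCAO 3B and the less abundant in the 6 other libraries.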

How the data were processed

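The authors deposited 1 table of FPKM values, per the file headers, with 1 column per sample. Per the submitters' processing notes the tools, listed without roles, were StringTie 1.3.1, HISAT2, Bowtie2 2.2.8 and fastp 0.18.0. The sources used here name no strand setting, annotation or genome build. Without strand, reads of overlapping genes cannot be told apart. Per the labels' protocols, mRNA was taken with oligo(dT) beads and copied with random primers.

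Columns were matched to samples by their codes. The code 7A ends the titles of 2 samples, and the 2 columns with it were told apart by the first letters of their names. The column of MCAO 7A shares these letters with all other MCAO columns, and that of PN 7A with PN 6A only. The column of PN 3A starts with other letters. In sham, the column of sham 9A starts with other letters than those of sham 4B and sham 5B. The labels do not explain these letters. Whether they mark a difference in treatment or batch within PN or sham was not tested. Of the IDs, 0 are paired with a symbol in the RefSeq gene table, so symbols of the 9 members are those given with their IDs. Lists of other immediate early genes, upstream factors and cell type markers were not analysed here for that reason. The members and lists were chosen with earlier results of these data known.

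Genes with at least 1 FPKM in at least 3 libraries were tested on log2(FPKM + 1) with limma 3.58.1 (R 4.3.3), a mean-variance trend and all 9 libraries in 1 fit. P-values were two-sided and adjusted by Benjamini-Hochberg over 15051 genes, with a threshold of 0.05. Correlations used exact permutation over pairings (Python 3.11.15, numpy 2.4.6). The scripts were tested on simulated data. All 9 members were named by rule, and genes most like them were ranked by r with the mean standardised value of the 8 tested members. Alternatives were a pseudocount of 0.1, other filters and scalings, array weights, covariates, a block and libraries left out.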

Additional observations from a re-analysis of the deposited data

How the results depend on the processing

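No member passed the adjusted threshold in any comparison under any alternative run (limma, lowest adjusted p 0.433 for MCAO against sham, 0.312 for PN against MCAO and 0.648 for PN against sham), and few of the other genes did: 0 to 5, apart from PN against MCAO with array weights, where 377 of 15051 genes were called against 1 without weights. The count of correlated pairs was 21 under every scaling, with a pseudocount of 0.1 and with group means subtracted, and 19 to 23 with 1 library left out. It was 23 without sham 5B, more than the 21 pairs that lack Jun, so some pairs with Jun passed there. Which pairs made up the other counts is not given here. At an unadjusted p below 0.05, MCAO against sham had 0 to 4 members with 1 library left out, the 4 without MCAO 6B. Direction was least stable in PN against MCAO. With array weights, which limma bases on how far libraries lie from their group and which ran from 0.345 for PN 3A to 6.19 for PN 7A, differences there turned to 0.52 (Egr1), 0.64 (Egr2), 0.48 (Nr4a1) and 0.091 (Dusp1), and in PN against sham to 0.032 (Fos), 0.021 (Junb) and 0.30 (Egr2). With the letter of the code as a covariate they turned to 0.28 (Egr1), 0.062 (Egr2) and 0.55 (Nr4a1), and for Arc in PN against sham to 0.12. Arc in PN against MCAO turned to -0.043 with equal sums, -0.038 with median-of-ratios scaling and -0.030 with quantiles. The array weights within PN were 0.345 for 3A, 0.664 for 6A and 6.19 for 7A. The weighted PN level thus comes mostly from PN 7A, also for the 377 genes called with weights. Beyond that, the cause of these turns was not tested. With 1 library left out, PN against MCAO ran from -0.53 to 0.78 for Fos, -0.021 to 0.80 for Junb, -0.50 to 0.72 for Egr1, -0.89 to 0.36 for Egr2, -0.52 to 0.70 for Nr4a1, -0.92 to 1.21 for Arc and -0.75 to 0.40 for Dusp1. Jun in MCAO against sham ran from -0.16 to 0.40. MCAO and PN codes share the numbers 3, 6 and 7, which the labels do not explain. Deviations of same-numbered libraries from group means correlated at 0.06, -0.40 and -0.16 over the genes tested. Over the 8 members they correlated at -0.44, -0.74 and -0.63. As 7 of the 8 members move together, they are not separate observations, and these values cannot show whether the numbers are pairs. With no label to pair them, the numbers were not taken as pairs. With the number as a replicate block, 0 members were called. The block cannot move the difference itself (0.11 for Fos), so that value says nothing of stability. Depth in reads is not known, so what it limits was not computed.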

Other observations

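Outside the 9 genes, the gene whose pattern was closest to the mean of the 8 tested members was ENSRNOG00000056126 (r = 0.96 over 9 libraries). It was at 1.66 FPKM in sham 4B, 0.252 in sham 5B and 0.940 in sham 9A, at 0.217 FPKM in MCAO 3B, 1.73 in MCAO 6B and 0.0469 in MCAO 7A, and at 1.16 and 1.32 FPKM in PN 3A and 7A, and it was listed at 0 in PN 6A. Next was ENSRNOG00000002125 (r = 0.95), a far more abundant gene with a narrow range, from 73.3 FPKM in PN 6A to 143 FPKM in sham 4B. Both were picked for this likeness out of all genes tested, so the r values are descriptions.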
